A study of Mus musculus with 9 samples.

Results

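The 10 genes described here serve the delivery of blood lipids at the capillary wall and the uptake of fatty acids. They were listed by name: Lpl, Gpihbp1, Lmf1, Angptl4, Angptl8, Cd36, Fabp4, Fabp5, Slc27a1 and Vldlr. They are 10 of 35071 genes measured, and all 10 were among the 17968 genes with enough counts to be tested. The RNA came from whole subcutaneous fat of mice of the C57BL/6 strain, all 24 weeks old. The animals labelled Homo KO (3 libraries) and Hete KO (3 libraries) carry a homozygous or heterozygous knockout of AGO1 in endothelial cells, and the WT animals (3 libraries) are wild-type littermates. The sources used here give no Cre line or promoter for the knockout, no litters and no feeding state. Nothing in the labels says more about the animals of a group than that they are separate samples, so p-values measure the spread between these libraries.

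Circulating lipoproteins carry triglyceride that is too large to cross the capillary wall. Lipoprotein lipase, made by adipocytes, is carried by the endothelial protein GPIHBP1 to the capillary lumen, where it releases fatty acids, and secreted angiopoietin-like proteins restrain it. The fatty acids are then taken up by membrane proteins such as CD36, bound inside cells by small carrier proteins and activated for storage as triglyceride.

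The libraries held between 20843427 and 28252001 estimated counts. Ago1, the targeted gene, had 62.2, 58.6 and 25.8 CPM (normalized counts scaled to library size) in Homo KO 1, 2 and 3 and 51.2, 59.7 and 60.1 CPM in Hete KO 1, 2 and 3, against 69.9, 63.8 and 63.4 CPM in WT 1, 2 and 3. Its log2 fold change was -0.32 in both KO groups together against WT (edgeR adjusted p = 0.429), so it did not pass the test, and in whole tissue endothelial Ago1 is measured with that of all other cells. The fat marker Adipoq, which encodes adiponectin, was between 903 and 1564 CPM and the endothelial marker Pecam1 between 167 and 244 CPM in the 9 libraries. A list of 14 skeletal muscle genes held 2.91% of the counts in Hete KO 2, 1.14% in WT 1 and 1.09% in WT 2, and at most 0.142% in the other 6 libraries. A liver list, leaving out Hp, which fat also makes, held 0.104% in WT 2 and 0.0896% in WT 3 and at most 0.0064% elsewhere. Homo KO 2 differed in inferred fragment size, with a median transcript length minus effective length of 267 bases against 184 to 199 bases in the other 8 libraries.

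By edgeR, 0 of the 10 genes passed the test (adjusted p under 0.05) in Homo KO against WT, Hete KO against WT, both KO groups against WT or Homo KO against Hete KO, where 0, 0.417, 2.34 and 0% of all tested genes passed. The lowest levels relative to WT were those of Angptl8 and Vldlr, whose 6 KO libraries all lay below all 3 WT libraries, as did 6.06% of all tested genes. Slc27a1 was on average higher in both KO groups, with overlap in Hete KO. In the edgeR fit over all 9 libraries, Lpl, Gpihbp1, Lmf1 and Cd36 had log2 fold changes between -0.16 and 0.15 in every comparison with WT. With an offset for transcript length, Lpl was lower, at -0.33 in Homo KO and -0.33 in Hete KO, without a call (edgeR adjusted p = 0.603 and 0.561). Within Lpl, the largest difference was in 1 transcript form, Lpl-203, which was abundant in the 3 WT libraries and low in all 6 KO libraries.

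On a scale that divides by transcript length (TPM, a level per transcript length and library total), the 10 genes spanned a wide range of levels. Lpl was the most abundant, with a mean of 3051 TPM over the 9 libraries (1834 to 4203 TPM), followed by Fabp4 at 2349 TPM and Cd36 at 2326 TPM. Fabp5 averaged 439.9 TPM, Angptl4 256 TPM, Vldlr 179 TPM and Slc27a1 172 TPM. Gpihbp1 averaged 91.8 TPM, Angptl8 24.4 TPM and Lmf1 10.5 TPM. The order of neighbours held in all 9 libraries at 5 of the 9 steps: Cd36 above Fabp5, Fabp5 above Angptl4, Angptl4 above Vldlr, Slc27a1 above Gpihbp1 and Gpihbp1 above Angptl8. Lpl exceeded Fabp4 in 8 libraries and Fabp4 exceeded Cd36 in 6, so the order of these 3 turned between libraries. The order of the other 2 pairs also turned between libraries, and for Vldlr and Slc27a1 it differed mostly by group. Vldlr exceeded Slc27a1 in 1 of 6 KO libraries (Homo KO 2) and in all 3 WT libraries, with means of 151 ± 33.2 and 189.5 ± 10.5 TPM in Homo KO, 128 ± 24.9 and 205 ± 44.4 TPM in Hete KO, and 257 ± 34.9 and 121 ± 24.4 TPM in WT (SD, n = 3 each). Angptl8 exceeded Lmf1 in all libraries but Hete KO 2 and 3, and in WT it averaged 44.1 ± 7.09 TPM (SD, n = 3) beside 10.5 ± 0.523 TPM.

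**Figure D1:**
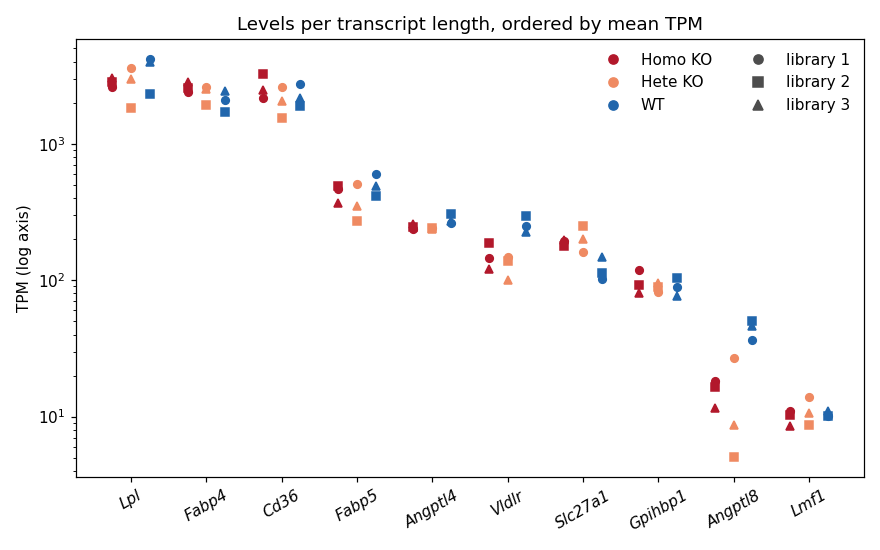
Levels in TPM (log axis) of the 10 genes, ordered by their mean, with 1 point per library, coloured by group (Homo KO, Hete KO, WT) and shaped by library number. Lpl, Fabp4 and Cd36 lie together at the top, between 1548 and 4203 TPM, and Angptl8 spreads most, between 5.04 and 49.8 TPM.

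Across all 9 libraries the highest normalized count divided by the lowest was 9.65 for Angptl8 and 1.25 for Lmf1, the widest and the narrowest of the 10 genes. At an unadjusted p under 0.05 the counts were 3, 4, 4 and 0 of 10 for Homo KO against WT, Hete KO against WT, both KO groups against WT and Homo KO against Hete KO, beside 16.4, 21.9, 22.6 and 5.44% of all genes. DESeq2 called 2, 2, 3 and 0 of 10, beside 3.46, 9.26, 10.2 and 0.0445% of all genes. The median log2 fold change of the 10 genes was -0.02, -0.11, -0.07 and 0.09 in the same order, where that of all tested genes lay between -0.01 and 0.02. The 3 comparisons with WT share the WT libraries, so they are not independent of each other.

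**Figure D2:**
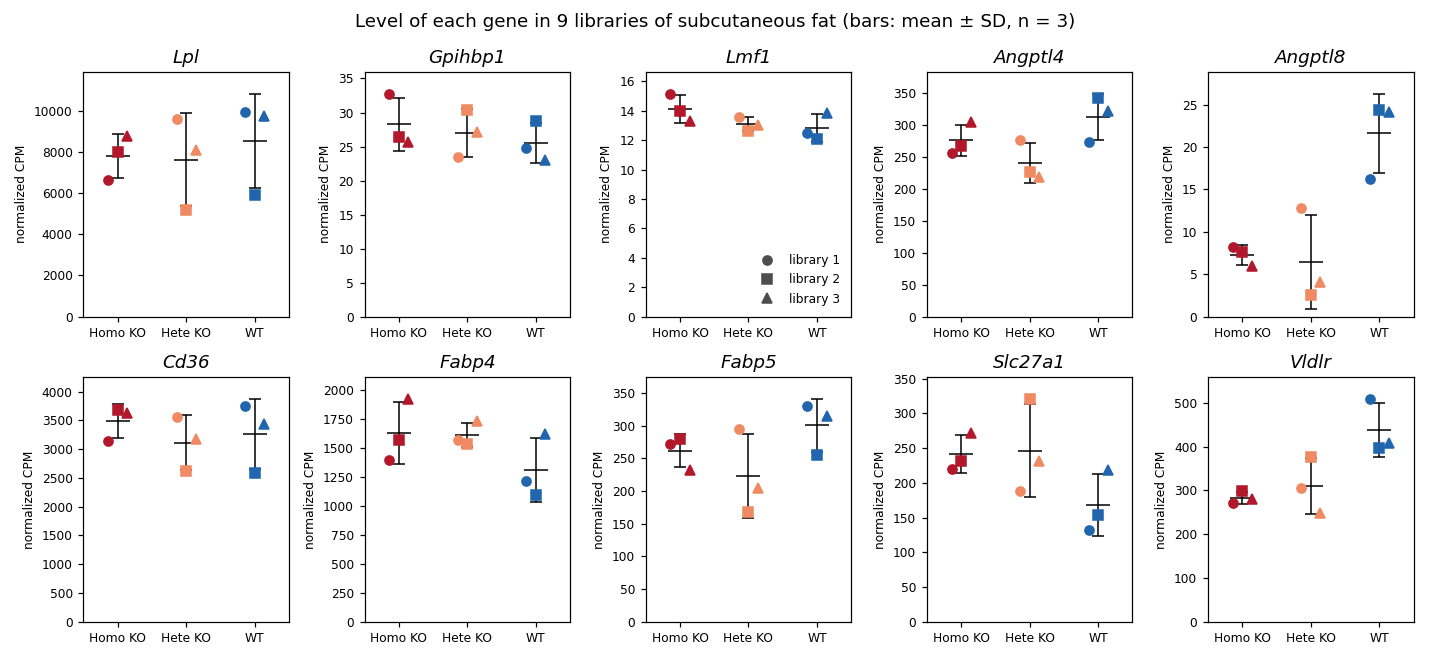
Normalized CPM of each gene in the 9 libraries, with Homo KO, Hete KO and WT from left to right, points for libraries and bars for the mean ± SD (n = 3). Angptl8 and Vldlr have all 6 KO libraries below the 3 WT libraries, while Lpl, Gpihbp1, Lmf1 and Cd36 overlap between all groups.

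Lpl encodes the lipase itself (chromosome 8, 68880491 to 68907448 on mm10, plus strand). It had 6661, 7989 and 8775 CPM in Homo KO 1, 2 and 3 and 9622, 5189 and 8114.5 CPM in Hete KO 1, 2 and 3, against 9976, 5900.0 and 9748 CPM in WT 1, 2 and 3. The groups overlapped, the lowest libraries were Hete KO 2 and WT 2 and the highest was WT 1, and these are the 3 libraries that held muscle transcripts. For Lpl the log2 fold change against WT was -0.13 in Homo KO (SE 0.261, edgeR adjusted p = 0.841) and -0.16 in Hete KO (SE 0.261, edgeR adjusted p = 0.769). Its sign depended on single libraries: with 1 library left out at a time it ran from -0.33 to 0.0052 in Homo KO and from -0.35 to 0.048 in Hete KO. An offset for transcript length rests on the estimated division of the counts between transcripts. With that offset the log2 fold change was -0.33 in Homo KO and -0.33 in Hete KO (edgeR adjusted p = 0.603 and 0.561). By limma on log2(TPM + 0.5) it was -0.27 and -0.33, and with the muscle share as a covariate -0.43 and -0.18.

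The Lpl counts are an estimate over 5 annotated transcripts, and their division differed between the groups. Lpl-201, of 4115 bases and the protein-coding class, held 96.7, 96.9 and 97.5% of the Lpl counts in Homo KO 1, 2 and 3 and 97.4, 95.7 and 97.9% in Hete KO 1, 2 and 3, against 91.8, 89.7 and 80.8% in WT 1, 2 and 3. Lpl-203, of 1900 bases and annotated as a target of nonsense-mediated decay, the pathway that degrades transcripts with an early stop, held 1.18, 0.923 and 0.973% in Homo KO and 0.849, 0.838 and 0.467% in Hete KO, against 6.59, 8.30 and 17.6% in WT. Every KO library lay below every WT library for Lpl-203 and above every WT library for Lpl-201.

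In estimated counts, Lpl-203 had 1729, 1551 and 2078 in Homo KO 1, 2 and 3 and 2204, 1032 and 779 in Hete KO 1, 2 and 3, against 15754, 12212 and 48082 in WT 1, 2 and 3. Its mean of 66.7 CPM in the 6 KO libraries was 14.3-fold lower than the 954 CPM of WT. WT 3, with 1714 CPM, was the highest of the 9 libraries, and without it the mean of WT was 574 CPM and the fold 8.59. Lpl-201 averaged 7502 CPM in the 6 KO libraries and 7443 CPM in WT, and its levels overlapped between the groups.

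Lpl-203 shares 1684 of its 1900 bases with Lpl-201 and has 216 bases of its own, in a last exon at 68907233 to 68907448 on chromosome 8 downstream of the end of Lpl-201, which has 2431 bases that Lpl-203 lacks. Reads that fit both forms were divided between them by the authors' estimation, so the values do not show from which bases the reads came. The 2 forms were singled out after their values were seen, and no test was made. They were the only member transcripts whose share of the gene did not overlap between both KO groups and WT. Of 20428 transcripts with a mean of at least 100 counts in genes with more than 1 transcript, 2.28% had a share that was lower without overlap, 2.47% had a higher one, and 0.0734% (15 transcripts) had a lower share with a CPM at least 4-fold lower.

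**Figure D3:**
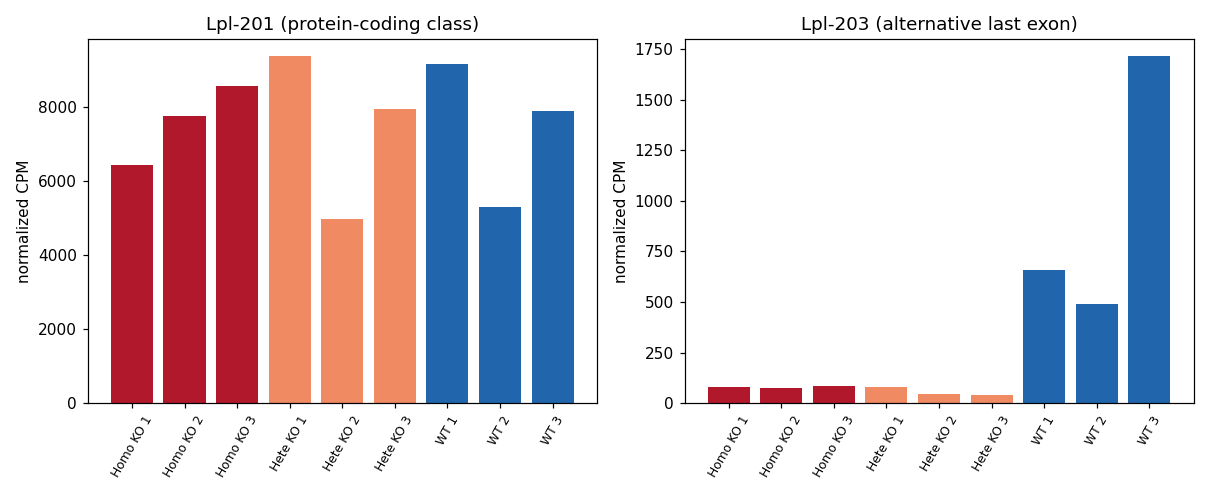
Normalized CPM of the Lpl forms Lpl-201 and Lpl-203 in each library (bars from 0), with Homo KO, Hete KO and WT from left to right. Lpl-203 lies between 37.9 and 85.4 CPM in the 6 KO libraries and between 489 and 1714 CPM in WT, while Lpl-201 overlaps between the groups.

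Gpihbp1 encodes the protein of capillary endothelium that binds the lipase (chromosome 15, 75596628 to 75599481, plus strand). It had 32.7, 26.4 and 25.7 CPM in Homo KO 1, 2 and 3 and 23.5, 30.4 and 27.1 CPM in Hete KO 1, 2 and 3, against 24.7, 28.8 and 23.0 CPM in WT 1, 2 and 3. The groups overlapped, with the highest value in Homo KO 1 and the lowest in WT 3. For Gpihbp1 the log2 fold change against WT was 0.15 in Homo KO (SE 0.149, edgeR adjusted p = 0.645) and 0.08 in Hete KO (SE 0.149, edgeR adjusted p = 0.791). In bulk tissue, fewer cells of a type and less RNA per cell cannot be told apart, so Gpihbp1 was also set against 12 other endothelial genes. It was 1.89 ± 0.169% of their summed CPM in Homo KO and 2.09 ± 0.336% in Hete KO, against 1.93 ± 0.0473% in WT (SD, n = 3 each). The two-sided exact permutation test on the log2 ratio gave p = 0.7 for Homo KO and 0.6 for Hete KO, of 20 arrangements with a smallest possible p of 0.1 (adjusted over 15 such ratio tests, 0.75 each). The summed level of those 12 genes was 1229 to 1845 CPM in Homo KO and 1257 to 1342 CPM in Hete KO, against 1158 to 1523 CPM in WT. The size of the Hete KO ratio difference depended on the marker. It was 0.10 in log2 against the list, 0.25 against Pecam1 alone and 0.26 against Cdh5 alone (exact permutation p = 0.6, 0.3 and 0.2).

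Lmf1 encodes a chaperone of the endoplasmic reticulum that folds the lipase. It had 15.1, 13.97 and 13.3 CPM in Homo KO 1, 2 and 3 and 13.6, 12.6 and 13.03 CPM in Hete KO 1, 2 and 3, against 12.5, 12.1 and 13.9 CPM in WT 1, 2 and 3. The groups overlapped, with all 9 libraries between 12.1 and 15.1 CPM. For Lmf1 the log2 fold change against WT was 0.14 in Homo KO (SE 0.130, edgeR adjusted p = 0.616) and 0.03 in Hete KO (SE 0.130, edgeR adjusted p = 0.926). Its counts were spread over 10 transcripts, and protein-coding ones held only 9.75 to 48.3% of them.

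Angptl8 encodes a secreted protein of liver and fat that inhibits the lipase together with related proteins and is known to rise with feeding and insulin (chromosome 9, 21835510 to 21837347, plus strand). It had 8.24, 7.56 and 6.00 CPM in Homo KO 1, 2 and 3 and 12.8, 2.53 and 4.08 CPM in Hete KO 1, 2 and 3, against 16.2, 24.4 and 24.1 CPM in WT 1, 2 and 3. No KO library reached a WT library, and Hete KO 1 came nearest to WT 1. Angptl8 has 1 transcript, so no division of reads between forms enters its values. For Angptl8 the log2 fold change against WT was -1.57 in Homo KO (SE 0.488, edgeR adjusted p = 0.212), -1.73 in Hete KO (SE 0.490, edgeR adjusted p = 0.0966) and -1.65 in both KO groups together (SE 0.398, edgeR adjusted p = 0.0598). The difference of the pooled KO libraries was 3.15-fold and just missed the threshold.

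Whether Angptl8 passed depended on the setting. DESeq2 called it in Homo KO against WT (adjusted p = 0.0172, range over the alternatives 0.0172 to 0.684), in Hete KO against WT (0.00221, range 0.00221 to 0.581) and in both KO groups against WT (0.000568, range 0.000568 to 0.581). Without Hete KO 1, whose level was the highest of the KO libraries, edgeR called it in Hete KO (log2 fold change -2.69, adjusted p = 0.0111) and in both KO groups (-2.13, adjusted p = 0.00985). Without a filter on low counts edgeR called it in both KO groups over all 9 libraries (-1.66, adjusted p = 0.0342). Its log2 fold change was negative in every alternative against WT, from -2.69 to -1.16 over the 3 comparisons. WT 2 and WT 3, the highest libraries for Angptl8, also held liver transcripts. Without both, WT 1 is the only WT library, which is then assumed to vary like the other groups, and the log2 fold change was -1.24 in both KO groups together (edgeR adjusted p = 0.581). The part of the liver transcripts in the difference was not tested beyond that.

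Angptl4 encodes another secreted inhibitor of the lipase, induced by fasting and by fatty acids through PPAR receptors (chromosome 17, 33773750 to 33781830, minus strand). It had 257, 267 and 304 CPM in Homo KO 1, 2 and 3 and 276, 227 and 219 CPM in Hete KO 1, 2 and 3, against 273, 342 and 322 CPM in WT 1, 2 and 3. WT 2 and WT 3 were the highest of the 9 libraries, and WT 1 lay inside the range of both KO groups. For Angptl4 the log2 fold change against WT was -0.18 in Homo KO (SE 0.136, edgeR adjusted p = 0.523) and -0.38 in Hete KO (SE 0.136, edgeR adjusted p = 0.151). WT 2 and WT 3 also held liver transcripts. Without both, which leaves WT 1 alone in WT, the Angptl4 log2 fold change was 0.012 in Homo KO and -0.18 in Hete KO. Most of its counts, 55.2 to 74.1%, were assigned to Angptl4-202, annotated as a target of nonsense-mediated decay, and its share overlapped between the groups.

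Relative to 10 adipocyte marker genes, Angptl4 was lower in every KO library than in every WT library. It was 1.69, 1.42 and 1.65% of their summed CPM in Homo KO 1, 2 and 3 and 1.81, 1.25 and 1.31% in Hete KO 1, 2 and 3, against 2.74, 3.02 and 2.06% in WT 1, 2 and 3. The log2 ratio differed by -0.70 in Homo KO and -0.84 in Hete KO, each with p = 0.1 by a two-sided exact permutation test, the smallest p that 3 against 3 allow (0.375 after adjustment over 15 tests). The same held against Adipoq alone (-0.57 and -0.73) and against Plin1 alone (-0.51 and -0.65), which encodes the lipid droplet protein perilipin 1. The sum of the 10 markers itself was on average higher in the KO groups, with overlap, at 15153 to 18771 CPM in Homo KO and 15248 to 18067 CPM in Hete KO, against 9973 to 15588 CPM in WT, so both parts of the ratio moved. Within the list the differences were uneven. Pck1, which encodes a gluconeogenic enzyme that also serves glycerol synthesis in fat, had 2352 to 4071 CPM in the 6 KO libraries and 635 to 1468 CPM in WT (log2 fold change 1.53, edgeR adjusted p = 0.0411), and Cfd, which encodes adipsin, had a log2 fold change of 1.86 (edgeR adjusted p = 0.0645). Those of Plin1, Plin4 and Cidec, which encode lipid droplet proteins, were 0.30, 0.10 and -0.10. The ratios of Lpl, Cd36, Fabp4 and Angptl4 to the list carry these differences.

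Cd36 encodes a membrane protein that takes up long-chain fatty acids, made by adipocytes and by capillary endothelium (chromosome 5, 17781690 to 17888801, minus strand). It had 3146, 3679.6 and 3636 CPM in Homo KO 1, 2 and 3 and 3558, 2613 and 3175 CPM in Hete KO 1, 2 and 3, against 3754, 2589 and 3444 CPM in WT 1, 2 and 3. The groups overlapped throughout, with WT 2 and Hete KO 2 lowest and WT 1 highest. For Cd36 the log2 fold change against WT was 0.10 in Homo KO (SE 0.174, edgeR adjusted p = 0.819) and -0.07 in Hete KO (SE 0.174, edgeR adjusted p = 0.863), and in both KO groups against WT its sign turned in 6 of 22 alternatives. Relative to the adipocyte markers it averaged 20.03 ± 0.637% in Homo KO and 19.0 ± 4.44% in Hete KO, against 27.5 ± 8.77% in WT (SD, n = 3 each). The exact permutation p of that ratio was 0.1 for Homo KO (log2 difference -0.41) and 0.3 for Hete KO (-0.52), or 0.375 and 0.643 after adjustment. The size rested on the marker and on WT 1: for Homo KO the log2 difference was -0.28 against Adipoq alone (exact permutation p = 0.4), -0.22 against Plin1 alone (p = 0.5) and -0.17 without WT 1. For Hete KO it was -0.27 without WT 1 and -0.34 without Hete KO 2. In Homo KO 2 the division of Cd36 between transcripts stood apart, with 4.01% in Cd36-203 against 30.1 to 40.3% in the other 8 libraries, and that library also had the larger inferred fragments.

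Slc27a1 encodes FATP1, a fatty acid transport protein that also activates fatty acids to acyl-CoA and is abundant in muscle and fat (chromosome 8, 71568882 to 71587302, plus strand). It had 220.4, 231 and 272 CPM in Homo KO 1, 2 and 3 and 188, 320.1 and 231 CPM in Hete KO 1, 2 and 3, against 132, 154 and 218 CPM in WT 1, 2 and 3. Every Homo KO library lay above every WT library, by a margin of 220.4 against 218 CPM at the nearest, while Hete KO 1 lay below WT 3. For Slc27a1 the log2 fold change against WT was 0.52 in Homo KO (SE 0.225, edgeR adjusted p = 0.290), 0.55 in Hete KO (SE 0.225, edgeR adjusted p = 0.192) and 0.54 in both KO groups together (SE 0.199, edgeR adjusted p = 0.152). DESeq2 called it in both KO groups against WT (adjusted p = 0.0448, range over the alternatives 0.0448 to 0.928).

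The Slc27a1 difference was smaller without the libraries that held muscle transcripts. Hete KO 2, with the largest muscle share, was its highest library, and WT 1 and WT 2, the other libraries with over 1%, were its lowest. Without these 3 libraries, which leaves WT 3 alone in WT, the log2 fold change was 0.15 in Homo KO, -0.048 in Hete KO and 0.049 in both KO groups (edgeR adjusted p = 0.785, 0.941 and 0.928). Without the libraries with liver transcripts, which leaves WT 1, the lowest library for Slc27a1, alone in WT, the log2 fold change was 0.86, 0.90 and 0.88. With the muscle share as a covariate in the fit of all 9 libraries it was 0.46 in Homo KO, 0.57 in Hete KO and 0.52 in both KO groups, and the part of muscle RNA in the difference was not tested beyond these settings.

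Fabp4 encodes the main fatty acid carrier protein of adipocytes, also present in capillary endothelium (chromosome 3, 10204088 to 10208576, minus strand). It had 1396, 1565 and 1916 CPM in Homo KO 1, 2 and 3 and 1565, 1535 and 1729 CPM in Hete KO 1, 2 and 3, against 1209, 1092 and 1616 CPM in WT 1, 2 and 3. WT 1 and WT 2 were below all KO libraries and WT 3 was among them. For Fabp4 the log2 fold change against WT was 0.32 in Homo KO (SE 0.175, edgeR adjusted p = 0.395) and 0.30 in Hete KO (SE 0.175, edgeR adjusted p = 0.348). Without the 3 libraries with muscle transcripts, which leaves WT 3 alone in WT, it was 0.011 in Homo KO and 0.037 in Hete KO. Without the libraries with liver transcripts, which leaves WT 1 alone in WT, it was 0.43 and 0.41. With the muscle share as a covariate it was 0.11 and 0.33. Against the adipocyte markers its means were lower than in WT with overlap, at 9.32 ± 1.03% in Homo KO and 9.72 ± 1.06% in Hete KO, and 10.7 ± 1.28% in WT (SD, n = 3 each, exact permutation p = 0.3 and 0.5). A retained-intron form, Fabp4-202, held 41.2% of the counts in Hete KO 2 and 33.7% in Hete KO 3, against 20.6 to 25.02% in the other 7 libraries.

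Fabp5 encodes a related carrier of adipocytes, macrophages, skin and endothelium (chromosome 3, 10012548 to 10016607, plus strand). It had 272, 280.0 and 233 CPM in Homo KO 1, 2 and 3 and 294, 169 and 205 CPM in Hete KO 1, 2 and 3, against 331, 255 and 315 CPM in WT 1, 2 and 3. The groups overlapped, with Hete KO 2 lowest. For Fabp5 the log2 fold change against WT was -0.20 in Homo KO (SE 0.196, edgeR adjusted p = 0.636) and -0.43 in Hete KO (SE 0.197, edgeR adjusted p = 0.236). A summed list of 9 macrophage genes was 569 to 857 CPM in Homo KO and 433 to 642 CPM in Hete KO, against 784 to 1170.0 CPM in WT, and its part in the Fabp5 difference was not tested.

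Vldlr encodes a receptor that binds triglyceride-rich lipoproteins at the cell surface and aids their lipolysis (chromosome 19, 27216484 to 27254231, plus strand). It had 271, 298 and 281 CPM in Homo KO 1, 2 and 3 and 307, 376 and 248 CPM in Hete KO 1, 2 and 3, against 508, 398 and 407 CPM in WT 1, 2 and 3. All 6 KO libraries were below all 3 WT libraries, with Hete KO 2 nearest to WT 2. In TPM the KO libraries lay between 99.9 and 187 TPM and the WT libraries between 225 and 294 TPM. For Vldlr the log2 fold change against WT was -0.63 in Homo KO (SE 0.162, edgeR adjusted p = 0.174), -0.50 in Hete KO (SE 0.162, edgeR adjusted p = 0.125) and -0.56 in both KO groups together (SE 0.137, edgeR adjusted p = 0.0612), so it did not pass.

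Other settings moved Vldlr across the threshold, and its log2 fold change against WT was negative in all of them. DESeq2 called it in Homo KO (adjusted p = 0.0107, range over the alternatives 0.0107 to 0.542), in Hete KO (0.0305, range 0.0305 to 0.397) and in both KO groups together (0.00252, range 0.00252 to 0.395). In both KO groups together, edgeR also called it without a filter on low counts (adjusted p = 0.0471), with a robust fit (0.0494) and without Hete KO 2 (0.0472). By limma on log2(TPM + 0.5) the log2 fold change was larger, at -0.77 in Homo KO, -1.01 in Hete KO and -0.89 in both KO groups, without a call. Vldlr has 8 annotated transcripts, and none of them differed in share between both KO groups and WT without overlap.

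The promoter windows of the members whose KO libraries were all below WT are shown because Angptl8 and Vldlr were the 2 that lay apart from WT in the same direction. Each window of 300 bases runs from 250 bases before to 50 bases after an annotated start, taken from RefSeq (GRCm38.p6, plus strand), and capitals mark motif matches. Angptl8 lies at chr9:21835260-21835559, the first Vldlr window at chr19:27216234-27216533 and the second at chr19:27216770-27217069.
Angptl8: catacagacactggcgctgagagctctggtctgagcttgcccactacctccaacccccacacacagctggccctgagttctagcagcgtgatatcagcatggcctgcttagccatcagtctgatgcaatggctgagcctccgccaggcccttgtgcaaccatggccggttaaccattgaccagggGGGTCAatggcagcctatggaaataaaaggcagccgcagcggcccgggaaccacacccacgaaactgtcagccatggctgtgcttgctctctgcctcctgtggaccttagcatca
Vldlr window 1: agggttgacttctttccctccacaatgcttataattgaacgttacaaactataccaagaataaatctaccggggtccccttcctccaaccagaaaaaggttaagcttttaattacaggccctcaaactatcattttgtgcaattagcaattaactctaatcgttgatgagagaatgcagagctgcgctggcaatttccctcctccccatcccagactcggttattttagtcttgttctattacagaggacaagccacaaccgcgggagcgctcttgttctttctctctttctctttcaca
Vldlr window 2: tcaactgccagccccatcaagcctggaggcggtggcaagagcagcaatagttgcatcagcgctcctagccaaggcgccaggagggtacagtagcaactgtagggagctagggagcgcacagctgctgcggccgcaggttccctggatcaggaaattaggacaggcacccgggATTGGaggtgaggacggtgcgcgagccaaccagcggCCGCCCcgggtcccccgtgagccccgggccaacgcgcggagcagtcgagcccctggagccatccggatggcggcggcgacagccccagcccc
The letters searched on both strands were AGGTCA, a motif of nuclear receptors, its variant GGGTCA, the E-box CACGTG, the CCAAT box, the GC box GGGCGG and the TATA box TATAAA, and no matches overlapped in the windows shown. Angptl8 held GGGTCA at -65 to -60 from the start, a match present in 13.7% of 32851 windows of this length. The second Vldlr window held CCAAT at -78 to -74 and GGGCGG at -42 to -37, both on the strand opposite to the gene, which 37.4 and 35.7% of all windows hold, and the first held no match. The windows of Angptl8 and Vldlr shared none of these motifs. Both Vldlr windows lie at starts of forms that held little of its estimated counts over all libraries. These are Vldlr-204 (2.83%) for the first window, and Vldlr-205 (2.71%) and Vldlr-208 (2.83%) for the second. Vldlr-207, with 58.9% of the counts, starts at 27217357, beyond the end of the second window, so neither window covers its start. Windows were found for 5 of the 10 genes.

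**Figure D4:**
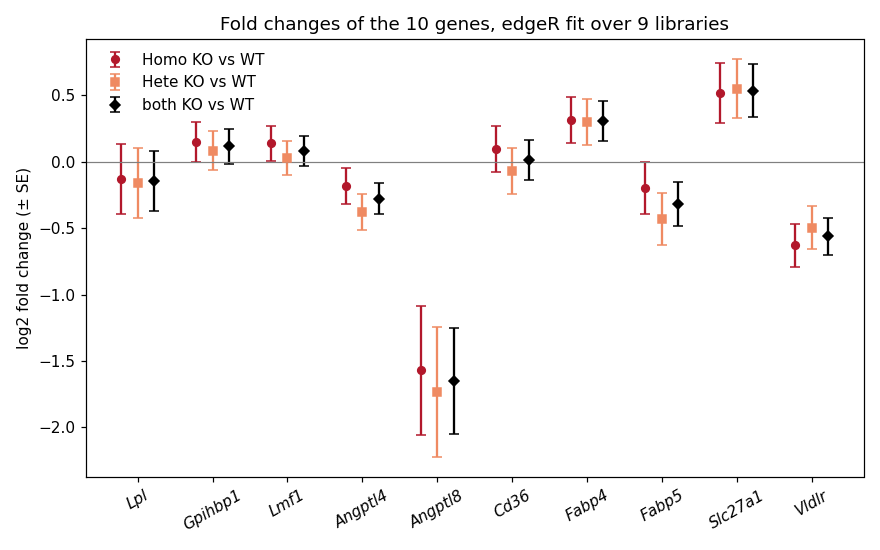
Log2 fold change (± SE) of each gene in Homo KO against WT, Hete KO against WT and both KO groups against WT, from edgeR over 9 libraries. Angptl8 lies lowest in all 3 comparisons, between -1.73 and -1.57, and no gene passed an adjusted p under 0.05.

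Of the 10 genes, 1 was higher and 2 were lower without overlap in Homo KO against WT (Slc27a1 higher, Angptl8 and Vldlr lower), beside 10.9 and 11.2% of all tested genes. In Hete KO and in both KO groups against WT 2 were lower without overlap (Angptl8 and Vldlr), beside 12.1 and 6.06% of all genes. In Homo KO against Hete KO the libraries of all 10 genes overlapped, beside 11.4% of all genes without overlap, and the log2 fold changes ran from -0.13 for Vldlr to 0.23 for Fabp5 (edgeR adjusted p between 0.941 and 0.999).

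**Figure D5:**
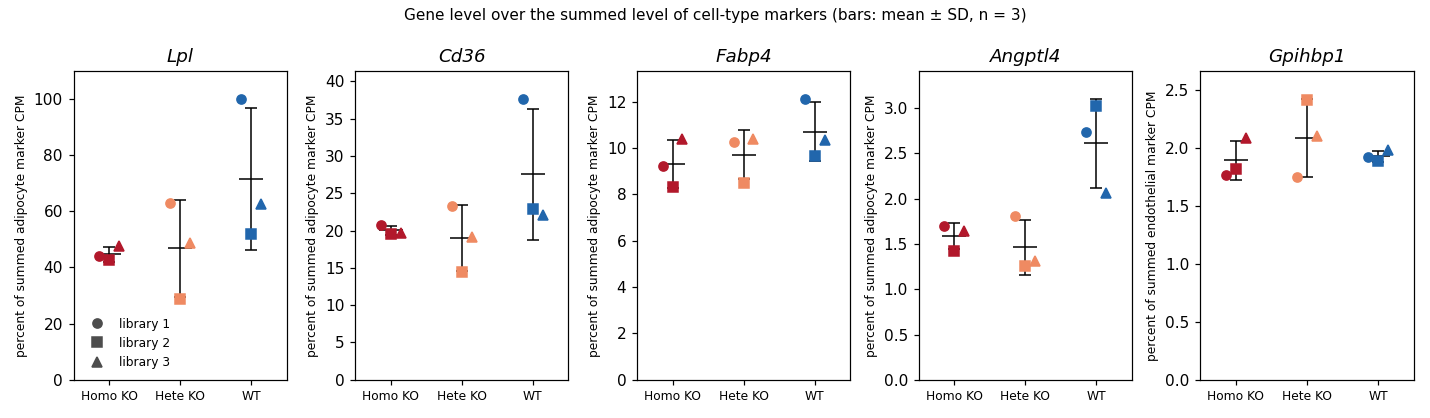
Lpl, Cd36, Fabp4 and Angptl4 as percent of the summed CPM of 10 adipocyte markers, and Gpihbp1 as percent of that of 12 endothelial markers, with Homo KO, Hete KO and WT from left to right (points for libraries, bars for the mean ± SD, n = 3). Angptl4 is below WT in all 6 KO libraries (1.25 to 1.81% against 2.06 to 3.02%), and Gpihbp1 overlaps between the groups.

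Relative to the adipocyte markers Lpl was 44.0, 42.6 and 47.6% in Homo KO 1, 2 and 3 and 63.1, 28.7 and 48.8% in Hete KO 1, 2 and 3, against 100.03, 52.1 and 62.5% in WT 1, 2 and 3. The Homo KO libraries were below all WT libraries, and Hete KO 1 was above WT 2 and WT 3. The log2 difference was -0.62 in Homo KO and -0.63 in Hete KO (two-sided exact permutation p = 0.1 and 0.3, adjusted 0.375 and 0.643), where the marker sum was on average lower in WT and Lpl was not. It was -0.35 in Homo KO and -0.36 in Hete KO without WT 1, and -0.31 in Hete KO without Hete KO 2. Against Plin1 alone the Homo KO libraries overlapped WT (log2 difference -0.43, exact permutation p = 0.3).

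The other genes of the pathway were counted in 4 lists. Of 13 tested lipase regulators and lipoprotein ligands, 0 rose and 1 fell in both KO groups against WT, with a median log2 fold change of -0.24 beside -0.01 over all tested genes, of which 0.824% rose and 1.52% fell. Of 12 other receptors and binding proteins of the capillary wall, 0 rose and 3 fell (median -0.29), of 18 other genes of fatty acid transport, binding and activation 0 rose and 1 fell (median -0.22), and of 15 endothelial regulators 1 rose and 0 fell (median -0.01). In Homo KO against WT, Hete KO against WT and Homo KO against Hete KO, 0 genes of the 4 lists passed by edgeR.

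Vegfb encodes a growth factor known to act on endothelial fatty acid transport genes. It had 103, 128 and 139 CPM in Homo KO 1, 2 and 3 and 113, 126 and 143 CPM in Hete KO 1, 2 and 3, against 78.1, 69.7 and 88.9 CPM in WT 1, 2 and 3, and no KO library overlapped WT. It rose in both KO groups against WT, with a log2 fold change of 0.67 (SE 0.129, edgeR adjusted p = 0.0410), but 13 of 22 alternatives ended the call (adjusted p up to 0.422). Its log2 fold change lay between 0.51 and 0.78 in all 22. Its receptor genes Flt1 and Nrp1, in the same list, did not pass.

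Among the capillary wall genes that fell, Hspg2 and Gpc1 encode heparan sulfate proteoglycans of the basement membrane (perlecan) and the cell surface (glypican 1). Hspg2 fell in both KO groups, averaging 1946 ± 142 CPM in Homo KO and 1574 ± 227 CPM in Hete KO, against 2546 ± 196 CPM in WT (log2 fold change -0.54, edgeR adjusted p = 0.0477). Gpc1 fell with 102 ± 12.2 CPM in Homo KO and 88.6 ± 20.1 CPM in Hete KO, against 149 ± 13.3 CPM in WT (-0.65, edgeR adjusted p = 0.0495). For both genes every KO library was below every WT library, and 16 of 22 alternatives ended each call, so the calls lie at the threshold. The summed level of 6 progenitor and fibroblast markers was 1383 to 1553 CPM in Homo KO and 892 to 1293 CPM in Hete KO, against 1497 to 2099 CPM in WT. Of the 6, Dpp4 and Pi16 fell in both KO groups (log2 fold change -1.20 and -1.88, edgeR adjusted p = 0.0265 and 0.0395), Pdgfra, Dcn, Col1a1 and Ly6a did not pass, and the part of these cells in the Hspg2 and Gpc1 differences was not tested.

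Apoc2 encodes the cofactor that activates the lipase, and Mfsd2a a transporter of lysophosphatidylcholine. Apoc2 fell to 0.362, 0.475 and 0.329 CPM in Homo KO 1, 2 and 3 and 0.222, 0.295 and 0.146 CPM in Hete KO 1, 2 and 3, against 0.501, 2.97 and 2.28 CPM in WT 1, 2 and 3 (log2 fold change -2.68 in both KO groups, edgeR adjusted p = 0.0408). Mfsd2a fell to 0.0453, 0.143 and 0.205 CPM in Homo KO 1, 2 and 3 and 0.260, 0.421 and 0.194 CPM in Hete KO 1, 2 and 3, against 0.710, 3.77 and 2.17 CPM in WT 1, 2 and 3 (-3.46, edgeR adjusted p = 0.0378). Both are low-count genes that were highest in WT 2 and WT 3, the libraries with liver transcripts. Without these 2 libraries, which leaves WT 1 alone in WT, the log2 fold changes were smaller, at -0.76 and -1.82. Of 21 alternatives, 12 ended the call of Apoc2 and 11 that of Mfsd2a.

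The genes whose levels over the 9 libraries were most like those of 3 members were found by the root mean square difference of their centred log2 CPM, over 9276 genes. For Lpl these were Snx7 (0.0887), Tcaf1 (0.117) and Tbca (0.118), where the own spread of Lpl was 0.319. For Gpihbp1 they were Ccdc167 (0.0540), Pan2 (0.0596) and Mylip (0.0819), beside an own spread of 0.160. For Fabp4 they were Tmem43 (0.0628), Prkci (0.0652) and Fzd4 (0.0718), beside an own spread of 0.237. Among the 10 genes themselves Lpl and Cd36 were the closest pair (0.167), followed by Gpihbp1 and Lmf1 (0.175). The value of 0.175 is above the own spread of Gpihbp1 (0.160), so it does not show that Gpihbp1 and Lmf1 varied together.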

How the data were processed

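RNA was sequenced by the submitters from 9 libraries of subcutaneous fat, 3 per group. Per the file headers, each deposited file lists 113193 transcripts with their estimated counts, which are fractional and unscaled, and their TPM, which the authors' software scales by effective length and library total. The build is mm10 per the submitters' processing notes. The sources used here name no quantifier. GENCODE M21 gave the gene of 111362 transcripts (98.38%). Their estimated counts were added up within each of 35071 genes, then rounded, and 17968 genes passed edgeR's filter. No exon of the 10 genes overlaps an exon of another gene.

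One model with a coefficient for each group was fitted to all 9 libraries in edgeR (quasi-likelihood F-test, TMM scaling, 6 residual degrees of freedom). P-values are two-sided and adjusted over all tested genes (Benjamini-Hochberg, threshold 0.05). For both KO groups together the mean of their coefficients was set against WT, and the SE is the log2 fold change over the root of F. The fit was run on simulated counts with known changes, the same spread for every gene and no libraries holding extra muscle or liver RNA. That run does not show how many calls in these data are right. Ratios to summed marker genes were compared by exact permutation (20 arrangements). The genes named are the 10 members, Ago1, the genes of 4 pathway lists that passed (1 of them is counted but not reported here), the marker genes printed and, for Lpl, Gpihbp1 and Fabp4, the 3 genes most alike with a mean of at least 10 CPM. The members, lists and tests were chosen with earlier results of these data known.

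The deviations of same-numbered libraries correlated between -0.072 (Homo KO 1 and Hete KO 1) and 0.46 (Hete KO 3 and WT 3). These values do not settle whether replicate numbers pair the animals, and the main fit holds no pairing. Alternatives were DESeq2, other normalizations and filters, a length offset, a robust fit, the compared groups only, a muscle covariate, the replicate block, limma on log2 TPM, and leaving out libraries. The setting without libraries holding liver transcripts, by a list without Hp, was added after seeing the data. Versions were R 4.3.3, edgeR 4.0.16, limma 3.58.1, DESeq2 1.42.0, Python 3.11.15, pandas 2.3.3, numpy 2.4.6, scipy 1.17.1 and matplotlib 3.10.9.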

Additional observations from a re-analysis of the deposited data

How the results depend on the processing

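Of the fold changes of the 10 genes under the alternatives, 220, 218, 202 and 213 kept their direction and their side of the threshold in Homo KO against WT, Hete KO against WT, both KO groups against WT and Homo KO against Hete KO, and 8, 9, 10 and 27 turned sign. The cause of these changes was not tested. With 3 libraries a group, differences of the size seen for most of the 10 genes could not be told from the spread. For Angptl8 the level was also low, under 25 CPM in every library. The planned setting without liver-transcript libraries removed all WT libraries, since its list holds Hp, and gave no value against WT.

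The number of genes called in Homo KO against WT (0 by edgeR over all libraries) was 7 with the compared groups only, 621 by DESeq2, 2 with the muscle covariate, 1 without a filter, 2 without the liver-transcript libraries (list without Hp) and 41 without the muscle-transcript libraries. In Hete KO against WT (75) it was 0 with the compared groups only, 1663 by DESeq2, 0 by limma with either pseudocount, 162 with the covariate, 258 without a filter, 304 with the robust fit, 1 with the length offset, 1 without the liver-transcript libraries and 11 without the muscle-transcript libraries. In both KO groups against WT (421) it was 1830 by DESeq2, 6 and 12 by limma with pseudocounts of 0.1 and 0.5, 759 without a filter, 4 with the length offset, 2 without the liver-transcript and 102 without the muscle-transcript libraries. DESeq2 called 8 in Homo KO against Hete KO (0). With the replicate block edgeR called 248 genes in Hete KO against WT and 487 in both KO groups against WT, and 0 of the 10 members. Of the members, DESeq2 called 2 in Homo KO and 2 in Hete KO against WT and 3 in both KO groups, where no filter gave 2 and the robust fit 1.

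Signs of log2 fold changes near 0 turned as follows. In Homo KO against WT, Lmf1 was -0.078 and -0.075 by limma with pseudocounts of 0.1 and 0.5 and -0.11 with the length offset, Cd36 was -0.035 with the covariate and -0.11 without the liver-transcript libraries, and Angptl4 was 0.012 without them. In Hete KO against WT, Gpihbp1 was -0.0093 by limma with both pseudocounts and -0.016 with the length offset, and without the muscle-transcript libraries Lmf1 was -0.051 and Slc27a1 -0.048. In both KO groups against WT, Lmf1 was -0.0095 and -0.0085 by limma, -0.017 with the length offset and -0.011 without the muscle-transcript libraries, and Cd36 was -0.052 with the covariate, -0.19 without the liver-transcript and -0.0016 without the muscle-transcript libraries. In Homo KO against Hete KO, the covariate gave Lpl -0.25, Angptl8 -0.11, Fabp4 -0.22 and Vldlr 0.068, and leaving out the muscle-transcript libraries gave Lpl -0.19, Angptl8 -0.23, Fabp4 -0.025, Slc27a1 0.19 and Vldlr 0.022. There limma gave Lmf1 -0.14 and -0.13 and Vldlr 0.24 with both pseudocounts, and the length offset gave -0.18 and 0.21. The log2 ratio of Gpihbp1 to Pecam1 and to Cdh5 alone differed by 0.057 and 0.025 in Homo KO against WT, and that of Fabp4 to Plin1 alone by 0.047 in Hete KO against WT.

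With 1 library left out at a time, the genes called ran from 0 to 153 in Homo KO against WT (153 without WT 1 and at most 2 otherwise), from 0 to 958 in Hete KO against WT and from 2 to 1095 in both KO groups against WT (highest without Hete KO 1 in each). The members called then ran from 0 to 1 in Hete KO against WT and in both KO groups against WT. Log2 fold changes that crossed 0 in Homo KO against WT ran from -0.33 to 0.0052 for Lpl and from -0.040 to 0.22 for Cd36. In Hete KO against WT they ran from -0.35 to 0.048 for Lpl, -0.020 to 0.199 for Gpihbp1 and -0.19 to 0.064 for Cd36, and in both KO groups against WT from -0.12 to 0.14 for Cd36. In Homo KO against Hete KO the ranges were -0.18 to 0.22 for Lpl, -0.061 to 0.16 for Gpihbp1, -0.22 to 1.13 for Angptl8, -0.13 to 0.106 for Fabp4, -0.21 to 0.21 for Slc27a1 and -0.28 to 0.032 for Vldlr. The log2 ratio of Gpihbp1 to the endothelial list ran from -0.103 to 0.015 in Homo KO and from -0.010 to 0.22 in Hete KO against WT. Ratios to the adipocyte list in Homo KO against Hete KO ran from -0.31 to 0.25 for Lpl, -0.076 to 0.27 for Cd36 and -0.15 to 0.016 for Fabp4.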
